A study of Mus musculus with 6 samples.

Results

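The Ighv3 family, also called VH36-60, is a small family of V genes of the mouse immunoglobulin heavy chain. Its members here were the sequences whose first named V gene, with the allele removed, begins with Ighv3-. There were 13029 of them among 228609 sequences, and they came from 8 of the 176 V genes named in the files. The sequences were produced by VDJ-seq, which reads rearranged V, D and J joins from genomic DNA, so that a join is counted whether or not it is transcribed. The DNA came from B cells of the spleen of C57BL/6 mice aged 12 weeks, enriched by magnetic removal of other cells. Starting DNA was varied over 4 libraries (500 ng, 1 µg, 2.5 µg, 5 µg), and a pair named Q5_vent and Q5_Q5 differed in the DNA polymerases used, with no DNA amount in their labels. Values given in library order below follow that sequence, with the pair last. Each of the 6 groups was a single library, and the labels do not say whether libraries shared mice or DNA. Cell type markers cannot be read from DNA joins, so the B cell label was not checked against them.

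A heavy-chain variable region is assembled in developing B cells by joining a V gene to a D gene and a J gene, and the junction forms CDR3, the loop at the centre of the antigen-binding site. A join in the reading frame and free of stop codons is productive and can be tested as protein. A join out of frame makes no heavy chain and is carried along in cells whose other allele is productive, so its V gene is not chosen for the protein it encodes. Comparing the share of a V gene among productive joins with its share among out-of-frame joins therefore sets the repertoire that reached the spleen against joins that make no heavy chain.

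The genes lie on chromosome 12 of the GRCm38.p6 annotation, which is the assembly of mm10. Ighv3-1 is at positions 113964390 to 113964683, Ighv3-3 at 114196439 to 114196875, Ighv3-4 at 114253617 to 114253915 and Ighv3-5 at 114262652 to 114262950. Ighv3-6 is at 114288152 to 114288447 and Ighv3-8 at 114322376 to 114322666. The annotation lists these 6 as V segments. It lists Ighv3-2, at 114033803 to 114034097, and Ighv3-7, at 114314186 to 114314479, as V segment pseudogenes.

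The V sequences of Ighv3-6 and Ighv3-3 are shown because these genes stood far apart in the comparison below. Each is the most frequent full-length V sequence among the deposited sequences without a mismatch to the called allele, seen 696 times for Ighv3-6 and 106 times for Ighv3-3. Both are 296 bases long, and capitals mark the 44 positions at which they differ, which leaves an identity of 85.1%.
Ighv3-6 V: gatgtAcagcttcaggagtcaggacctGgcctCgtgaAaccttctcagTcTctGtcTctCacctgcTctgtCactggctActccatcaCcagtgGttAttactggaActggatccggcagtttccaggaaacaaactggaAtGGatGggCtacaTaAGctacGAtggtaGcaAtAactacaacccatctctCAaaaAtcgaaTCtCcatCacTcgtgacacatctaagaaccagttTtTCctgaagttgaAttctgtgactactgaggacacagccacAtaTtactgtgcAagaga
Ighv3-3 V: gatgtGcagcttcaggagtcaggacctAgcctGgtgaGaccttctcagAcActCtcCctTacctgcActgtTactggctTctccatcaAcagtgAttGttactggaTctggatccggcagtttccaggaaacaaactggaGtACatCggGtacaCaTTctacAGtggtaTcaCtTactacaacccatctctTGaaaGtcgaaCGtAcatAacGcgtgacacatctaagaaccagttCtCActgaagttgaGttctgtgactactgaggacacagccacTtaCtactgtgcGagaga

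Ighv3-3 was the member with 3 in-frame cysteine codons, at codons 22, 33 and 96 counted from the 5′ end of the V sequence. Ighv3-6 and Ighv3-1 had cysteine codons at 22 and 96, Ighv3-4 and Ighv3-5 at 22 and 97, and Ighv3-8 at 22 and 95. The first and last of these are the pair known to form the disulfide bond of the variable domain. The stretch around codon 33, in capitals, reads as follows in the 2 genes. The capitals are a cysteine codon in Ighv3-3 and a tyrosine codon in Ighv3-6.
Ighv3-3: atcaacagtgatTGTtactggatctgg
Ighv3-6: atcaccagtggtTATtactggaactgg

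The last 36 bases of each of the 6 intact V genes are shown because they supply the start of CDR3, which follows the cysteine codon in capitals.
Ighv3-1: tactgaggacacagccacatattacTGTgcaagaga
Ighv3-6: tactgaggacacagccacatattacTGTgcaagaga
Ighv3-3: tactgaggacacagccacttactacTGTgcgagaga
Ighv3-4: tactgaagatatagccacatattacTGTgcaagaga
Ighv3-5: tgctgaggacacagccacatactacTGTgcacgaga
Ighv3-8: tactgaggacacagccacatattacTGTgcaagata
Ighv3-1 and Ighv3-6 shared the whole of this stretch and were 93.2% identical over all 296 bases. Ighv3-8 ended in bases of its own. Of the 2003 sequences given to Ighv3-1, 43.0% carried a call that named several V genes, among them 526 that named Ighv3-1 and Ighv3-6 and 326 that named Ighv3-1 and Ighv3-2. Counts of Ighv3-1 are therefore uncertain. No sequence given to Ighv3-2, Ighv3-3, Ighv3-4, Ighv3-5, Ighv3-6 or Ighv3-7 named a V gene besides its own. Sequences that named Ighv3-1 with Ighv3-6 or Ighv3-2 were given to Ighv3-1, which was named first. Counts of Ighv3-6 and Ighv3-2 therefore leave these sequences out, and their ratios were not computed with them included.

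Of all sequences, the family made up 5.69%, 5.48%, 5.52%, 5.82%, 5.73% and 5.66% in library order. The libraries held 8704, 17055, 56006, 112320, 19490 and 15034 sequences in that order, of which 495, 935, 3090, 6541, 1117 and 851 were of the family. All intervals given below are 95% intervals that cover counting error only. The family's 13029 sequences were 8666 productive, 3565 out of frame, and 798 in frame with a stop codon.

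Among productive joins the family took a smaller share than among out-of-frame joins in each of the 6 libraries. Its productive share was 5.2%, 4.82%, 5.06%, 5.29%, 5.16% and 5.13% in library order. Its out-of-frame share was 6.54%, 7.12%, 6.53%, 7.22%, 7.22% and 7.0% in the same order. The productive shares lay below the out-of-frame shares without overlap. Over the summed libraries the shares were 5.18% and 7.0%, a ratio of 0.739 (interval 0.712 to 0.767), and the ratio ran from 0.678 to 0.794 over libraries. The value depended on Ighv3-6, and without it the rest of the family had a ratio of 0.303 (interval 0.287 to 0.319). Without the pseudogene Ighv3-2 the ratio was 0.853 (interval 0.819 to 0.887). By the same measure the Ighv2 family, a neighbouring family of similar size, had a ratio of 0.394 (interval 0.380 to 0.408), and the Ighv8 family had 0.831 (interval 0.799 to 0.864).

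**Figure D1:**
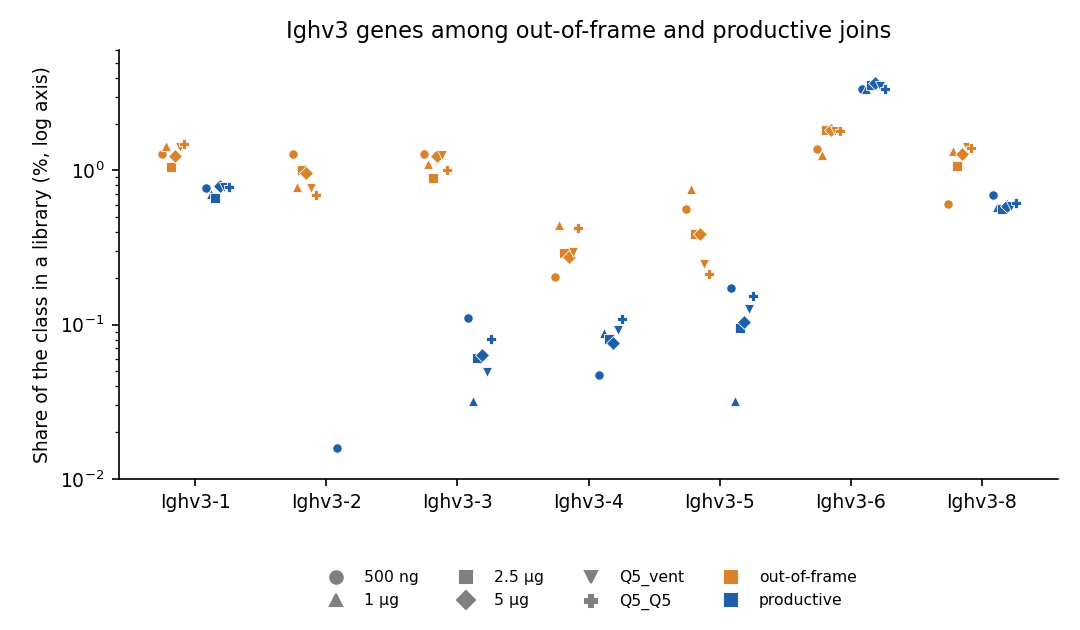
Share of each Ighv3 gene among out-of-frame joins (orange) and productive joins (blue) in each library, as a percentage of that class on a log axis; shapes mark the 6 libraries and shares of 0 are not drawn. Ighv3-6 is higher among productive joins in all 6 libraries, and Ighv3-3 is lower in all 6, with productive shares from 0.0321% to 0.111%.

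A V gene was called higher or lower when the ratio of its productive to its out-of-frame share was at least 1.5-fold and the interval of the ratio excluded 1, among 113 V genes with at least 100 sequences of both classes together. By this rule 42.5% of V genes were higher and 41.6% were lower, so that most V genes differed one way or the other. Of the 7 Ighv3 genes tested, 1 was higher and 6 were lower. Ighv3-7, with 3 productive sequences and 1 out of frame, was below the minimum.

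Ighv3-6 was the most used gene of the family in both classes. Its productive share was 3.38%, 3.38%, 3.6%, 3.67%, 3.52% and 3.39% in library order. Its out-of-frame share was 1.37%, 1.26%, 1.83%, 1.83%, 1.79% and 1.79% in that order. Every productive share was above every out-of-frame share. Summed, 6010 productive and 897 out-of-frame sequences gave 3.59% against 1.76%, a ratio of 2.04 (interval 1.90 to 2.18). The exact two-sided sign-flip permutation test over the 6 libraries, adjusted over the 113 V genes, gave p = 0.035, from the smallest unadjusted p it allows, 0.03125. Most of the 113 V genes shared this adjusted p, so it does not set Ighv3-6 apart. The same holds for the other Ighv3 genes with this value below. Ighv3-6 supplied 25.2% of the family's out-of-frame joins and 69.4% of its productive joins.

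Ighv3-3 went the other way. Its productive share was 0.111%, 0.0321%, 0.0608%, 0.0632%, 0.0494% and 0.0810% in library order. Its out-of-frame share was 1.27%, 1.10%, 0.887%, 1.248%, 1.27% and 1.00% in that order. The classes did not overlap. Summed, 104 productive and 578 out-of-frame sequences gave 0.0621% against 1.14%, a ratio of 0.0547 (interval 0.0444 to 0.0674, exact sign-flip permutation p adjusted over the 113 V genes 0.035, lower in 6 of 6 libraries). This ratio was number 12 from the lowest of the 113. Ighv3-3 supplied 16.2% of the family's out-of-frame joins and 1.2% of its productive joins.

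The contrast between Ighv3-6 and Ighv3-3, the ratio of their ratios, was 37.2 (interval 29.9 to 46.4). By library it was 28.3, 92.1, 28.7, 39.6, 50.5 and 23.4 in library order. The highest of these rested on 4 productive Ighv3-3 sequences at 1 µg, beside 42 out of frame. Because the pair was named with earlier results known, no test is given for it. Out of frame the genes were nearer in use, 1.76% against 1.14%. In-frame joins with a stop codon, the other class that is not productive, held Ighv3-6 at 1.86% and Ighv3-3 at 0.859%. Of all Ighv3-6 sequences 84.7% were productive, against 13.5% of all Ighv3-3 sequences. By the log2 ratio of productive to out-of-frame share, the V genes nearest to Ighv3-6, at 1.03, were Ighv1-76 at 1.02, Ighv5-6-4 at 1.06 and Ighv1-75 at 0.99. Those nearest to Ighv3-3, at -4.19, were Ighv1-79 at -4.05, Ighv8-7 at -4.01 and Ighv1-70 at -4.47.

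**Figure D2:**
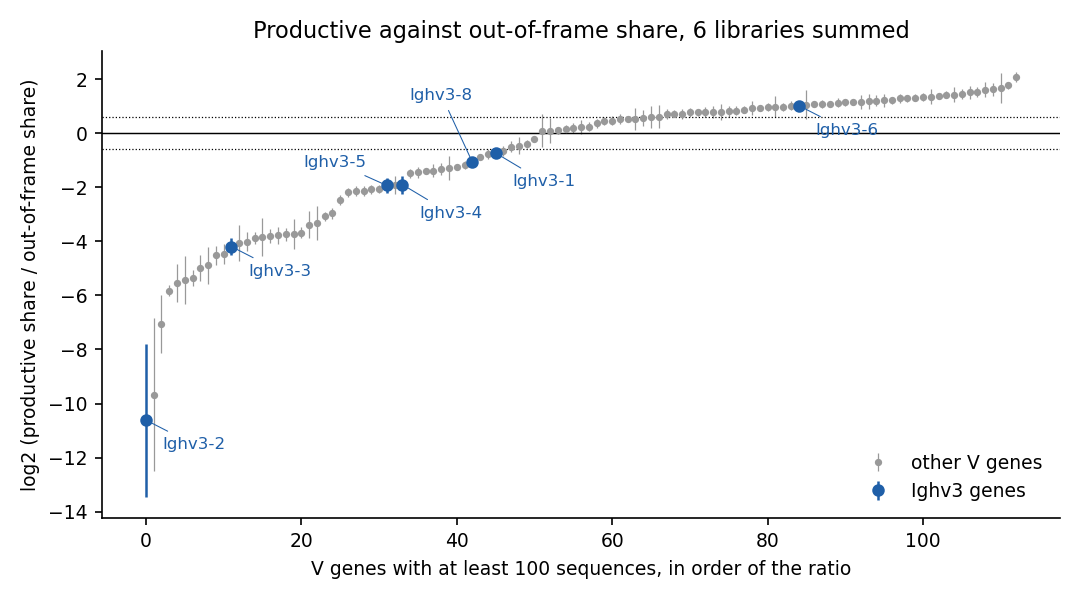
Log2 ratio of productive to out-of-frame share for the 113 V genes with at least 100 sequences, in order from lowest to highest, with 95% intervals of counting error; blue points are Ighv3 genes and dotted lines mark 1.5-fold. Ighv3-2 is at the low end at -10.61, Ighv3-3 is at -4.19, and Ighv3-6 is the single family member above 0, at 1.03.

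Ighv3-1 was lower among productive joins in 6 of 6 libraries. Its productive share was 0.774%, 0.707%, 0.662%, 0.788%, 0.784% and 0.783% in library order. Its out-of-frame share was 1.27%, 1.44%, 1.05%, 1.24%, 1.43% and 1.49% in that order, above every productive share. The ratio was 0.603 (interval 0.549 to 0.663, exact sign-flip permutation adjusted p 0.035). With calls naming a single gene it was 0.662. Calls naming Ighv3-1 and Ighv3-2 were 182 of the 633 out-of-frame and 116 of the 1256 productive Ighv3-1 sequences. The ratio with these calls alone left out was not computed. Of Ighv3-1 sequences, 61.6% out of frame and 88.2% productive had no V mismatch.

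Ighv3-8 had a productive share of 0.695%, 0.579%, 0.562%, 0.588%, 0.586% and 0.612% in library order. Its out-of-frame share was 0.609%, 1.33%, 1.07%, 1.28%, 1.43% and 1.39% in that order. It was lower among productive joins in 5 of 6 libraries, and the exception, 500 ng, had 12 out-of-frame sequences. The summed ratio was 0.478 (interval 0.433 to 0.529), and the exact sign-flip permutation test gave an adjusted p of 0.0679, which did not pass 0.05.

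Ighv3-4 and Ighv3-5 were the rarest of the intact genes among out-of-frame joins, while Ighv3-3 was the rarest among productive joins. Ighv3-4 had a productive share of 0.0474% to 0.108% over libraries and an out-of-frame share of 0.203% to 0.445%, with a ratio of 0.268 (interval 0.213 to 0.338). Ighv3-5 had a productive share of 0.0321% to 0.174% and an out-of-frame share of 0.212% to 0.759%, with a ratio of 0.262 (interval 0.214 to 0.321). For each of them the share was lower among productive joins in 6 of 6 libraries (exact sign-flip permutation adjusted p 0.035). The ranges did not overlap within either gene. Of all their sequences, 43.1% of Ighv3-4 and 43.6% of Ighv3-5 were productive, between Ighv3-3 at 13.5% and Ighv3-8 at 56.3%.

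Ighv3-2, an annotated pseudogene, rearranged but gave almost no productive join among the sequences that named it first. The 326 sequences that named Ighv3-1 and Ighv3-2, 116 of them productive, were given to Ighv3-1 and are not counted here. The aligned V stretch had a median of 269 bases in out-of-frame Ighv3-2 joins, against 101 in productive Ighv3-1 joins. The out-of-frame share of Ighv3-2 was 1.27%, 0.785%, 1.01%, 0.956%, 0.770% and 0.697% in library order. Of its 697 sequences 476 were out of frame, 220 were in frame with a stop codon and 1, at 500 ng, was productive. All but that one carried an insertion or deletion and a stop codon by the deposited flags. The full-length Ighv3-2 sequence, read 190 times, had 1 gap against the called allele, after 165 bases, and its reading frame then met stop codons at codons 83 and 86. They are in capitals in this stretch.
Ighv3-2: ccctggaatTGAattctgTGActactgagg
With each sequence given to the gene named first, Ighv3-2 had the lowest ratio of the 113 V genes, 0.000639. Its interval, 8.98e-05 to 0.00454, rests on the 1 productive sequence. Without the 500 ng library no productive sequence was left, so no ratio could be formed and 5 Ighv3 genes were called lower.

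With each join given to the V gene named first, the order of the family by use in out-of-frame joins was Ighv3-6, Ighv3-1, Ighv3-8, Ighv3-3, Ighv3-2, Ighv3-5, Ighv3-4 and Ighv3-7. Ighv3-6 exceeded Ighv3-1 by 0.519 percentage points (interval 0.368 to 0.669). Ighv3-1 and Ighv3-8 differed by 0.0177 points (interval -0.119 to 0.154), and Ighv3-8 and Ighv3-3 by 0.0904 points (interval -0.0431 to 0.224), so these neighbours were not separated. Ighv3-3 exceeded Ighv3-2 by 0.200 points (interval 0.0754 to 0.325), in 4 of 6 libraries. Ighv3-2 exceeded Ighv3-5 by 0.536 points (interval 0.436 to 0.636), in 6 of 6 libraries. Ighv3-5 exceeded Ighv3-4 by 0.0982 points (interval 0.0256 to 0.171), in 4 of 6 libraries, with the opposite order in Q5_vent and Q5_Q5. Without the 5 µg library the interval included 0 for Ighv3-3 over Ighv3-2, at 0.112 points, and for Ighv3-5 over Ighv3-4, at 0.0849 points.

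The middle of this order depended on how calls naming several V genes were counted. Calls naming a single gene left 342 out-of-frame joins for Ighv3-1, against 623 for Ighv3-8, 578 for Ighv3-3 and 476 for Ighv3-2, which placed Ighv3-1 below all of them. The 182 out-of-frame joins that named both Ighv3-1 and Ighv3-2 were all given to Ighv3-1. With the last gene named in place of the first, Ighv3-2 had 658 joins, and Ighv3-3 minus Ighv3-2 turned to -0.157 points (interval -0.292 to -0.0218). Ighv3-6 stayed highest under both counts.

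The J partners of the family also differed between the classes. The mouse locus has 4 J genes, Ighj1 to Ighj4, of which Ighj1 lies nearest to the D genes. Among productive joins the family used Ighj1 in 25.1%, against 19.5% for all other V genes, a difference of 5.62 percentage points (interval 4.69 to 6.55) that had the same sign in 6 of 6 libraries. Ighj4 was used in 24.6% against 28.7%, a difference of -4.13 points (interval -5.06 to -3.20) and lower in 6 of 6 libraries. Ighj2 was used in 28.0% against 28.6%, a difference of -0.585 points whose interval included 0. Ighj3 was used in 22.3% against 23.2%, a difference of -0.904 points (interval -1.80 to -0.00323) that was lower in 4 of 6 libraries. Without the 5 µg library it was -0.609, and its interval included 0 without 1 µg, 5 µg or Q5_vent. Among out-of-frame joins the family used Ighj1 in 15.4% against 16.3% and Ighj4 in 21.3% against 22.6%, and both intervals included 0. Ighj3 was used there in 31.5% against 29.7%, a difference of 1.82 points (interval 0.245 to 3.40) that was higher in 5 of 6 libraries. Over 28 comparisons of partners and lengths, the smallest adjusted p of the exact sign-flip permutation test was 0.125, so none passed 0.05.

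The genes of the family differed among themselves in the use of Ighj3. Among productive joins Ighj3 took 5.77% in Ighv3-3 (interval 2.67 to 12.0), 6.67% in Ighv3-4 (interval 3.55 to 12.2), 7.03% in Ighv3-8 (interval 5.59 to 8.80) and 10.3% in Ighv3-5 (interval 6.61 to 15.7). It took 25.1% in Ighv3-6 (interval 24 to 26.2) and 25.5% in Ighv3-1 (interval 23.1 to 28.0). V genes were called when they lay at least 5 points from all other V genes with an interval that excluded 0. At the minimum of 200 productive sequences, 18.8% of V genes were lower in Ighj3, and of 3 Ighv3 genes tested Ighv3-8 was lower. With the minimum reduced to 100 after the data were seen, 20.8% of V genes were lower, and 4 of 6 Ighv3 genes were. Among out-of-frame joins 6.86% of V genes with at least 100 sequences were lower in Ighj3, and 0 of 7 Ighv3 genes were.

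Within each gene, productive joins held less Ighj3 than out-of-frame joins. In Ighv3-8 the productive share of Ighj3 was 9.09%, 0%, 9.96%, 6.40%, 6.02% and 8.82% in library order. Its out-of-frame share of Ighj3 was 50%, 45.1%, 30.8%, 31.3%, 27% and 19.6% in that order. Every out-of-frame value was above every productive value, and the value of 0% rested on 72 productive sequences. The summed difference in Ighv3-8 was -24.4 points (interval -28.4 to -20.4).

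In Ighv3-3 the productive share of Ighj3 was 0%, 0%, 8.0%, 7.69%, 0% and 0% in library order, on 4 to 52 productive sequences a library. Its out-of-frame share of Ighj3 was 27.3% to 36.0%. The classes did not overlap, and the summed difference was -26.6 points (interval -32.5 to -20.7). The difference was -24.7 points in Ighv3-4 (lower in 5 of 6 libraries), -16.3 points in Ighv3-5 (6 of 6), -8.96 points in Ighv3-1 (6 of 6) and -5.88 points in Ighv3-6 (4 of 6). Without the 5 µg library the Ighv3-6 difference was -3.69 points and its interval included 0. In the exact sign-flip permutation test over libraries, adjusted over 89 V genes, p was 0.0795 for Ighv3-1, Ighv3-3, Ighv3-5 and Ighv3-8, 0.121 for Ighv3-4 and 0.470 for Ighv3-6, and 0 of the 89 V genes passed 0.05. At an unadjusted p under 0.05 there were 35.

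A difference of at least 5 points downward, with an interval that excluded equal shares, was common. It was found in 65.2% of the 89 V genes and in 6 of 6 Ighv3 genes. A difference of at least 20 points was found in 6.74% of the V genes, which were 6 genes: Ighv11-2, Ighv3-3, Ighv3-4, Ighv3-8, Ighv1-11 and Ighv5-12-1. These comparisons within a gene and their thresholds were added after the data were seen. Over all other V genes together the Ighj3 share ran from 21.4% to 23.8% of productive joins and from 27.6% to 30.1% of out-of-frame joins over libraries.

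**Figure D3:**
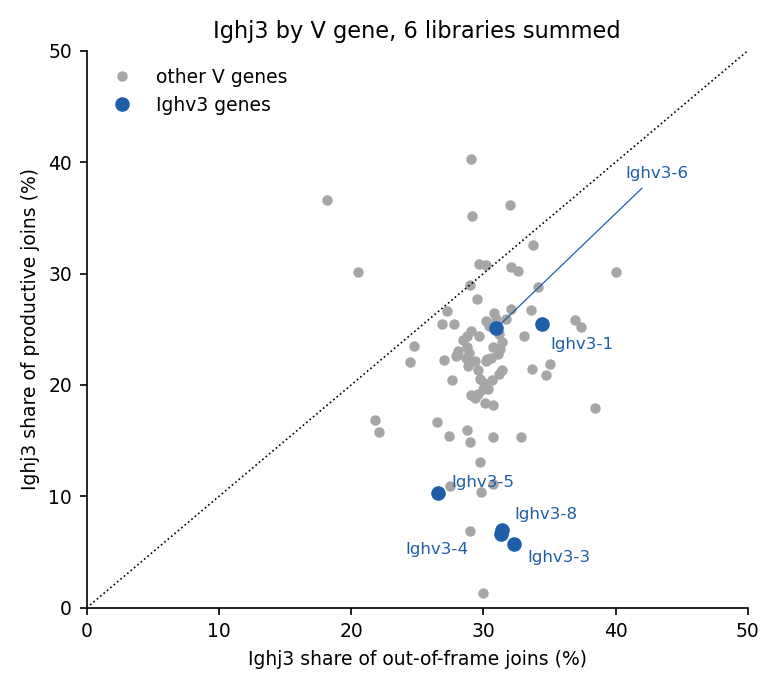
Share of Ighj3 among productive joins against its share among out-of-frame joins, both in percent, for the 89 V genes with at least 100 sequences in each class; blue points are Ighv3 genes and the dotted line marks equal shares. Ighv3-3, Ighv3-4 and Ighv3-8 lie near 31% to 32% out of frame and at 5.77% to 7.03% among productive joins, while Ighv3-6 and Ighv3-1 lie among the other V genes.

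Ighj1 took a larger share of productive than of out-of-frame joins in each of the 6 intact genes. It made up 35.6% of productive Ighv3-4 joins, 35.0% of Ighv3-8, 33.7% of Ighv3-5, 30.8% of Ighv3-3, 28.2% of Ighv3-1 and 22.2% of Ighv3-6. The out-of-frame shares of Ighj1 were 11.1%, 17.9%, 17.7%, 14.7%, 15.5% and 14.9% in the same order of genes. A rise of any size was found in 79.8% of the 89 V genes with at least 100 sequences in each class. A rise of at least 5 points with an interval that excluded 0 was found in 29.2% of them and in 6 of 6 Ighv3 genes, from 7.27 points in Ighv3-6 to 24.4 points in Ighv3-4. This comparison was also added after the data were seen. At least 5 points above all other V genes were 19.8% of V genes with at least 100 productive sequences, and 5 of 6 Ighv3 genes, all but Ighv3-6. Ighv3-3 differed from the other Ighv3 genes in its remaining partners. Ighj4 was found in 60 of its 104 productive joins, 57.7% (interval 48.1 to 66.7), against 21.6% of its out-of-frame joins. Ighj2 was found in 5.77% of its productive joins (interval 2.67 to 12.0), against 31.3% of its out-of-frame joins. Some V genes outside the family had productive shares like these. Ighj4 took 60.9% in Ighv2-6-1 and 59.0% in Ighv5-15, and Ighj2 took 6.94% in Ighv2-6-1 and 4.07% in Ighv2-9. How many V genes had such shares was not counted. In Ighv3-8, Ighj4 took 27.6% of productive joins and 22.1% of out-of-frame joins.

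**Figure D4:**
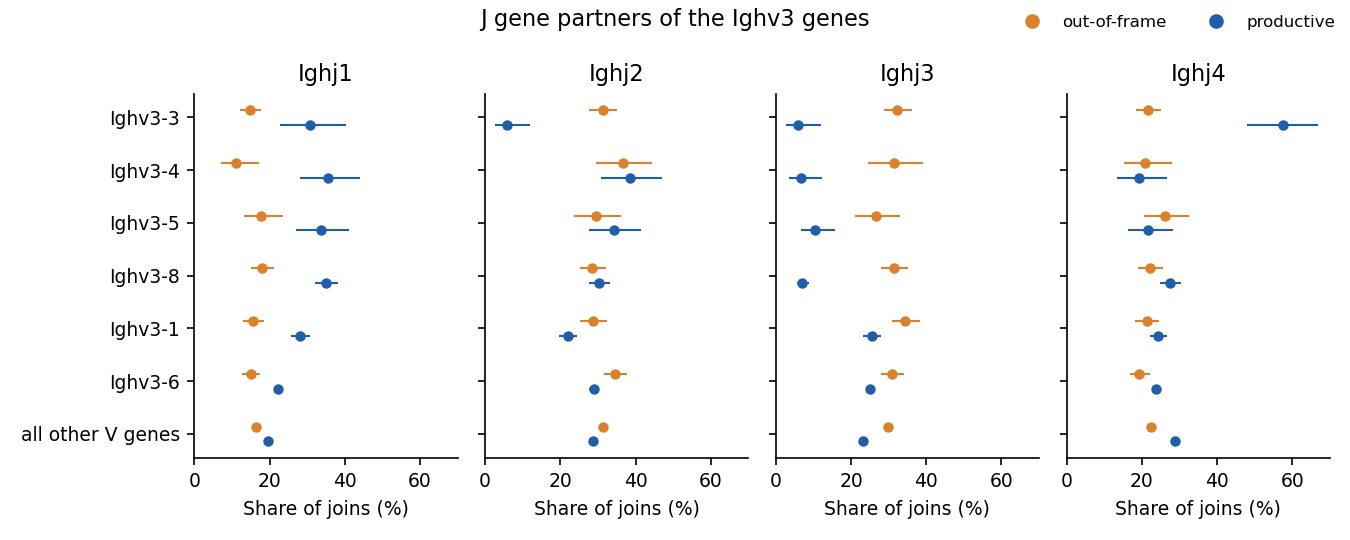
Share of each J gene among out-of-frame joins (orange) and productive joins (blue) of 6 Ighv3 genes and of all other V genes, in percent, with the 6 libraries summed and 95% Wilson intervals. Out of frame the genes lie close together in each panel; among productive joins Ighv3-3 stands at 57.7% Ighj4, and Ighv3-3, Ighv3-4, Ighv3-5 and Ighv3-8 stand at 5.77% to 10.3% Ighj3.

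The Ighj3 share of Ighv3-1 varied little with the kind of call. Among productive joins it was 25.3% in the 732 sequences that named Ighv3-1 alone, 26.75% in the 400 that also named Ighv3-6 and 23.3% in the 116 that also named Ighv3-2. The Ighj1 share was 32.5%, 23.0% and 19.8% in that order.

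The D partners of the family differed from those of other V genes by at most 3.43 points. DFL16 and DSP2 were the most used D families here, and DST4 and DQ52 were used less, DQ52 lying nearest to the J genes. Among productive joins the family used DFL16 in 36.9% against 40.2% for all other V genes, a difference of -3.29 points (interval -4.34 to -2.25) that was lower in 5 of 6 libraries. DSP2 was used in 41.7% against 39.5%, a difference of 2.26 points (interval 1.19 to 3.32), higher in 5 of 6. DST4 was used in 5.79% against 6.50%, a difference of -0.711 points (interval -1.22 to -0.205), but -0.430 with an interval that included 0 when the 2.5 µg library was left out. DQ52 was used in 7.47% against 6.91%, with an interval that included 0. Joins with no D call were 7.05% against 6.01%, a difference of 1.04 points (interval 0.492 to 1.59) and higher in 6 of 6 libraries. Among out-of-frame joins the sign of DFL16 turned, with 41.7% against 38.2%, a difference of 3.43 points (interval 1.76 to 5.11) that was higher in 6 of 6 libraries. DST4 was again lower there, 3.39% against 4.35%. Ighd5 and Ighd6 were each under 1% of the family's joins in either class.

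CDR3 length of the family as a whole was close to that of other V genes. Productive CDR3s of the family averaged 37.7 bases (SD 6.55, 8666 sequences), against 37.9 (SD 6.84), a difference of -0.245 bases (interval -0.387 to -0.103) that was shorter in 5 of 6 libraries. Ighv3-6 averaged 37.6 bases (SD 6.64), a difference of -0.365 bases from all other V genes (interval -0.536 to -0.194) that was shorter in 6 of 6 libraries. Ighv3-3 averaged 37.8 bases (SD 5.49), and Ighv3-6 minus Ighv3-3 was -0.261 bases (interval -1.33 to 0.807), so that the pair was not separated in length. V genes with a CDR3 at least 1 base shorter than all others were 16.5% of those with at least 200 productive sequences, and 0 of 3 Ighv3 genes were among them. Of the 6 intact genes Ighv3-5 had the shortest mean, 36.4 bases (SD 7.0), followed by Ighv3-4 with 36.8 (SD 6.41), and Ighv3-8 had the longest, 38.2 (SD 5.79). Ighv3-5, with 175 productive sequences, and Ighv3-4, with 135, were below the minimum of 200 and so were not counted. Ighv3-5 differed from all other V genes by -1.55 bases (interval -2.59 to -0.511) and Ighv3-4 by -1.11 (interval -2.19 to -0.0266).

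Length differed with the J gene. In productive Ighv3-6 joins the mean was 40.3 bases with Ighj1, 35.4 with Ighj2, 35.8 with Ighj3 and 39.4 with Ighj4, and over all other V genes it was 40.5, 35.7, 36.2 and 39.8. In Ighv3-3 the means were 36.8 bases with Ighj1 (32 sequences), 33.5 with Ighj2 (6 sequences), 42.5 with Ighj3 (6 sequences) and 38.3 with Ighj4 (60 sequences), so its few Ighj3 joins were not short. Among out-of-frame joins the family averaged 38.7 bases against 38.5, with an interval of the difference that included 0. There Ighv3-6 averaged 37.9 bases and Ighv3-3 averaged 39.0, a difference of -1.11 (interval -1.89 to -0.336), shorter in 5 of 6 libraries.

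The parts of the junction differed slightly in productive joins. The family had 4.12 bases between V and D (SD 3.24) against 4.63 in all other V genes (SD 3.29), a difference of -0.502 bases (interval -0.572 to -0.432). Between D and J it had 2.98 against 3.19 bases, a difference of -0.210 (interval -0.268 to -0.152), and the aligned D segment was 11.1 against 11.5 bases, a difference of -0.431 (interval -0.526 to -0.336). Out of frame, the intervals of all 3 differences included 0.

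In Ighv3-3 the V alignment reached the last germline base in 372 of 578 out-of-frame joins, 64.4% (interval 60.4 to 68.2, libraries 58.9% to 67.0%). Among its productive joins it did so in 29 of 104, 27.9% (interval 20.2 to 37.2, libraries 14.3% to 66.7%). The library values of the 2 classes overlapped at the upper end. In Ighv3-6 the shares were 36.7% out of frame (interval 33.6 to 39.9) and 45.5% productive (interval 44.2 to 46.7), the opposite order. Ighv3-5 reached the last base in 70.9% of out-of-frame and 65.1% of productive joins. A base added at the junction can match the germline by chance, which is counted as untrimmed.

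Clones found in more than 1 library, meaning the same V and J genes with identical CDR3 bases, had a share in the family near that of other V genes. They were 106 of 12741 clones, 0.832% (interval 0.688 to 1.01), against 0.778% of the 210096 clones of all other V genes. The share was 2.16% in Ighv3-5 (8 clones, interval 1.10 to 4.21), 1.35% in Ighv3-8 (23 clones, interval 0.904 to 2.02) and 0.820% in Ighv3-6 (57 clones, 45 of them productive). Ighv3-3 had 5 such clones, 0 of them productive. The labels do not say whether libraries share DNA, so a clone in several libraries may be from the same cells. The CDR3s of the 4 clones found in 4 libraries, the most for any clone of the family, are shown as examples, with no base in capitals since no part is compared.
Ighv3-6 with Ighj1, productive: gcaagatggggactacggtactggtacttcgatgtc
Ighv3-5 with Ighj4, out of frame: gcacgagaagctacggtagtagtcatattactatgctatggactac
Ighv3-1 with Ighj1, productive: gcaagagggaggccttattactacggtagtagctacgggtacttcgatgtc
Ighv3-5 with Ighj3, productive: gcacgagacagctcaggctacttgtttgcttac
The first was seen in 15 sequences, of which 4 came from 2.5 µg, 6 from 5 µg, 3 from Q5_vent and 2 from Q5_Q5. The next was seen in 13 sequences of the 4 input libraries, and each of the others in 6 sequences of 4 libraries.

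Between starting amounts of DNA the family share did not differ beyond counting error, 5.82% at 5 µg against 5.69% at 500 ng, a ratio of 1.02 (interval 0.937 to 1.12). Of 107 V genes that reached 100 sequences in this pair of libraries, 0.935% were called, which was 1 gene, Ighv3-5, with 0.172% against 0.276% and a ratio of 0.623 (interval 0.408 to 0.952). Its share at 500 ng rested on 24 sequences. Ighv3-2 had a ratio of 0.684 (interval 0.491 to 0.951), with 39 sequences at 500 ng, and stayed within 1.5-fold. Between Q5_Q5 and Q5_vent the family ratio was 0.988 (interval 0.906 to 1.08), and 0% of 84 V genes were called. Ighv3-6 had a ratio of 0.959 (interval 0.850 to 1.08) and Ighv3-3 of 0.889 (interval 0.616 to 1.28) in that pair. With 1 library per group these comparisons have no replicate check and no test was made.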

How the data were processed

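The deposited files hold 1 row per deduplicated sequence, with V, D and J calls, frame flags and CDR3 per the file headers. Build mm10, Bowtie2 2.3.2 and Trim Galore 0.4.4 are named in the submitters' processing notes. The sources used here do not name the tool that made the calls. V identity is deposited as a fraction of aligned bases, and junction and alignment lengths are deposited in bases, per the file headers.

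Each sequence was given to the V gene named first, alleles merged, and classed as productive, out of frame or in frame with a stop. A call naming several V genes was found in 6.65% of family sequences. Ratios of shares carry Katz intervals, shares Wilson intervals, and differences normal intervals, at 95%; they cover counting error only. The share that a count of 0 still allows (3 counts of the total) was between 0.00267% for 5 µg and 0.0345% for 500 ng. Productive and out-of-frame values were paired within a library and tested by exact two-sided sign-flip permutation over 6 libraries, with Benjamini-Hochberg adjustment over all V genes tested, or over the 28 comparisons of partners and lengths. The labels do not say that the libraries are independent samples, so these p-values may measure technical spread. The call rule was tested on simulated counts.

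The members, lists and thresholds were chosen with earlier results of these data known. All 8 Ighv3 genes are named, with the 3 V genes nearest in ratio to Ighv3-6 and to Ighv3-3, the Ighv2 and Ighv8 families, and every J gene and D family. V genes named for an Ighj3 difference of 20 points, or for Ighj4 and Ighj2 shares like those of Ighv3-3, were chosen after their values were seen. Alternatives were single-gene calls, the last V gene named, 1 count per clone, removal of unclear primer tags, equal library weights, other classes and thresholds, and leaving out each library. The tools were matplotlib 3.10.9, SciPy 1.17.1, NumPy 2.4.6, pandas 2.3.3 and Python 3.11.15.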

Additional observations from a re-analysis of the deposited data

How the results depend on the processing

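Of 332 alternative values, 306 stayed the same, 10 weakened, 5 strengthened and 11 reversed, and the causes were not tested. Staying the same meant keeping the sign and an interval that still excluded, or still included, 0. For counts of V genes it meant a count within 1.5-fold of the main one. Over 11 alternatives each, the family ratio ran from 0.725 to 0.770, Ighv3-6 from 2.00 to 2.15, Ighv3-3 from 0.0514 to 0.0595 and their contrast from 34.8 to 40.1. Small differences were unstable. The family's Ighj2 difference turned to 0.573 points without unclear primer tags and 0.0430 with equal library weights, and without 1 library it was -0.683 to -0.116. Its Ighj3 difference had an interval including 0 with single-gene calls (-0.918), with equal weights (-0.892), and without 1 µg, 5 µg or Q5_vent. That difference ran from -1.23 to -0.609 without 1 library. The DST4 difference ran from -1.21 to -0.430, with an interval including 0 without 2.5 µg. The DQ52 interval excluded 0 with single-gene V calls (0.636), 1 count per clone (0.582), no unclear tags (0.607) and single-family D calls (0.609). Without 1 library the DQ52 difference ran from 0.477 to 0.720. Mean CDR3 length of Ighv3-6 minus Ighv3-3 was 0.331 bases with equal weights, 0.00609 when standardised to J genes, and -0.564 to 0.0549 without 1 library. Ighj3 within Ighv3-6 was -3.69 points without 5 µg, with an interval including 0. The log2 family ratio was -0.044 for 2.5 µg over 500 ng, against 0.034 for 5 µg. At a 2-fold threshold 30 V genes were higher in place of 48. Without 1 library, 5 to 6 Ighv3 genes were called lower. The out-of-frame share of Ighv3-1 minus Ighv3-8 was -0.614 points with single-gene calls, -0.556 with the last gene named and -0.00817 to 0.0656 without 1 library, and Ighv3-3 minus Ighv3-2 was -0.157 with the last gene named; these settings were chosen after seeing the data. Pairing was of classes within a library; no pairing between groups could be made, since each group has 1 library.

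Limits are set by depth. The smallest libraries held few productive Ighv3-3, Ighv3-4 and Ighv3-5 sequences, so their values by library are imprecise. Counts of Ighv3-1 depend on how ambiguous calls are assigned.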

Other observations

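The translated CDR3s of productive joins differed in charge between members. The mean net charge, counting lysine and arginine as positive and aspartate and glutamate as negative, was -0.585 in the family (SD 1.23, 8666 sequences) and -0.334 in all other V genes (SD 1.23). Ighv3-5 had the most negative mean, -0.903 (SD 1.09), then Ighv3-6 with -0.668 (SD 1.252), and Ighv3-8 was at -0.200 (SD 1.08). The third CDR3 residue is the first after the codons that the V gene end supplies in full. It was aspartate in 38.3% of productive Ighv3-5 joins, 24.7% of Ighv3-6 and 1.22% of Ighv3-8, against 8.06% in all other V genes. It was tyrosine in 23.9% of Ighv3-8 joins and 4.39% of Ighv3-6 joins. Among the other intact members aspartate ran from 14.1% in Ighv3-4 to 38.3% in Ighv3-5. Ighv3-8 is the member whose V end differs in its last bases, and a link to the third residue was not tested. A tryptophan was found in the CDR3 of 17.3% of productive Ighv3-3 joins, 25.7% of Ighv3-5, 29.6% of Ighv3-4 and 32.8% of Ighv3-6. The tryptophan share was 37.8% in Ighv3-1 and 40.6% in Ighv3-8, against 32.1% in all other V genes. These values were chosen after they were seen, and no test was made.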
